A study of Mus musculus with 12 samples.

Results

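The interferon gamma axis was followed through 9 genes: the cytokine Ifng, its receptor chains Ifngr1 and Ifngr2, the receptor-bound kinases Jak1 and Jak2, the transcription factors Irf1 and Irf8, and the feedback inhibitors Socs1 and Socs3. The genes were chosen by symbol from a table of 18211 genes, and all 9 were found and passed the filter on low counts, as did 13563 genes in all. Cells of MC38, a mouse colon carcinoma line, were injected under the skin of female C57BL/6 mice aged 5 weeks. From each of 4 groups, 3 tumors were sequenced.

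CK mice received vehicle. The PB-020 group received PB-020, an inhibitor of IGF-1R, the receptor for insulin-like growth factors, at a daily oral dose of 50 mg/kg. The anti-PD-1 group received an antibody against the T cell checkpoint receptor PD-1, at 200 μg per mouse by intraperitoneal injection on days 9, 12, 15 and 18 after the cells. The PB-020/anti-PD-1 group received both. Mice were divided on day 7, and no allele or transgene is named for any group. MC38 is a single line and its transcripts map to the same genome as those of the host. The values belong to the whole piece of tumor, cancer cells and infiltrating cells together. In such bulk samples, fewer cells of a type and less RNA per cell cannot be told apart. By the volumes in the paper, tumors with the antibody were mostly smaller at the end than those without it. The part of tumor size in the results was not tested. The labels name each tumor only by group and number, so p-values measure the spread between these samples, which may be technical in part.

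Interferon gamma is made mainly by activated T cells and natural killer cells. It binds a receptor of IFNGR1 and IFNGR2 chains, which JAK1 and JAK2 serve, and the signal reaches sites called GAS near target genes. IRF1 is an early product that drives a second wave of transcription, IRF8 is both induced by the cytokine and needed for macrophage and dendritic cell development, and SOCS1 and SOCS3 bind the kinases or receptors of cytokine pathways and switch them off. PD-1 on T cells restrains the receptor signals that lead to interferon gamma, and the cytokine in turn induces PD-L1.

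Depth lay between 16545394 and 17217035 expected counts per library. A pair of libraries stood apart in transcripts of other cells. In CK tumor 3, 6 neutrophil genes (S100a8, S100a9, Cxcr2, Csf3r, Retnlg, Ly6g) summed to 412 FPKM, against 6.05 to 33.0 FPKM in the other 11 tumors. In anti-PD-1 tumor 1, 8 skeletal muscle genes summed to 493 FPKM, against 9.78 to 56.0. The calls of the members and the target counts are given with and without them. Marker sums and the counts of the other lists include both libraries unless stated otherwise. Epithelial markers, which a colon carcinoma could be expected to carry, summed to at most 4.29 FPKM in any tumor (6 genes), so the label of the line was not checked by them.

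Levels per length, as FPKM, spanned a wide range among the members. Irf1 was the most abundant with a mean of 123 FPKM over the 12 tumors, and Ifng the least with 2.11 FPKM. Between them lay Jak1 (57.4), Ifngr1 (43.8), Ifngr2 (33.0), Socs3 (30.3), Socs1 (17.4), Jak2 (15.3) and Irf8 (15.1). The members also differed in how far they moved. The highest tumor had 7.44 times the FPKM of the lowest for Ifng, 3.39 times for Socs1, 3.15 times for Irf1 and 2.53 times for Irf8, against 1.25 to 1.35 times for the receptor chains and kinases. Anti-PD-1 tumor 1 was the highest of the 12 tumors for 6 of the 9 members, and CK tumor 2 the lowest for 4.

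**Figure D1:**
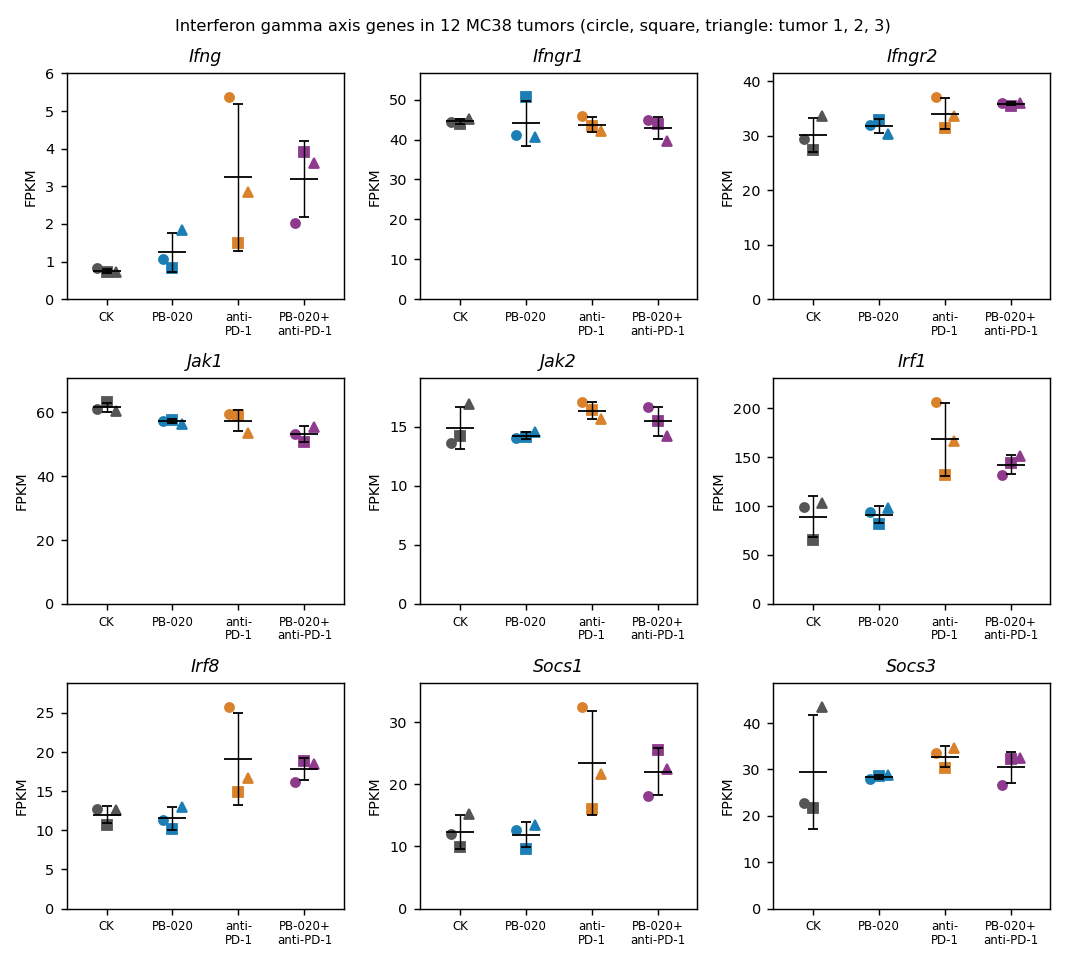
FPKM of the 9 members in each of the 12 tumors, one panel per gene, with the y axis starting at 0 and the groups on the x axis. Symbols are tumors and black bars the mean ± SD of 3 tumors. For Irf1, Irf8 and Socs1 all 6 tumors with the antibody lie above all 6 without it, while the receptor chains and kinases vary by at most 1.35 times between lowest and highest tumor.

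With the antibody, the ligand, both interferon regulatory factors and Socs1 rose in the whole set of tumors. Over the 6 tumors with anti-PD-1 antibody against the 6 without it, edgeR called 5 of the 9 members raised (Ifng, Ifngr2, Irf1, Irf8, Socs1) and 0 lowered, where 11.8% of all genes tested were called raised and 12.3% lowered. Against CK, 4 members rose with anti-PD-1 alone (Ifng, Irf1, Irf8, Socs1), where 4.18% of all genes rose. With PB-020/anti-PD-1, 5 rose (the same genes and Ifngr2), where 8.35% of all genes rose, and Jak1 fell, where 9.6% fell. With PB-020 alone 0 members were called by edgeR, 0 had an unadjusted p under 0.05 (5.46% of all genes had), DESeq2 called 0 members, and 0% of all genes were called. The comparisons with CK share the same 3 control tumors, so their values are given side by side and not as independent evidence.

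A check chosen after seeing the data left out CK tumor 3 and anti-PD-1 tumor 1. Over the 5 tumors with antibody against the 5 without, 7 members then rose, where 11.3% of all genes rose and 9.93% fell. The log2 changes were 1.43 for Ifng, 0.20 for Ifngr2, 0.77 for Irf1, 0.54 for Irf8 and 0.85 for Socs1, and Jak2 (0.16) and Socs3 (0.33) were added. With anti-PD-1 alone against CK, Socs3 alone was then called (0.56, adjusted p = 0.014, edgeR), where 1.73% of all genes rose and 1.64% fell. Irf1 was at 0.88 (adjusted p = 0.0502, edgeR), Irf8 at 0.45 (adjusted p = 0.0623) and Socs1 at 0.81 (adjusted p = 0.0687), with 2 tumors left in each group.

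**Figure D2:**
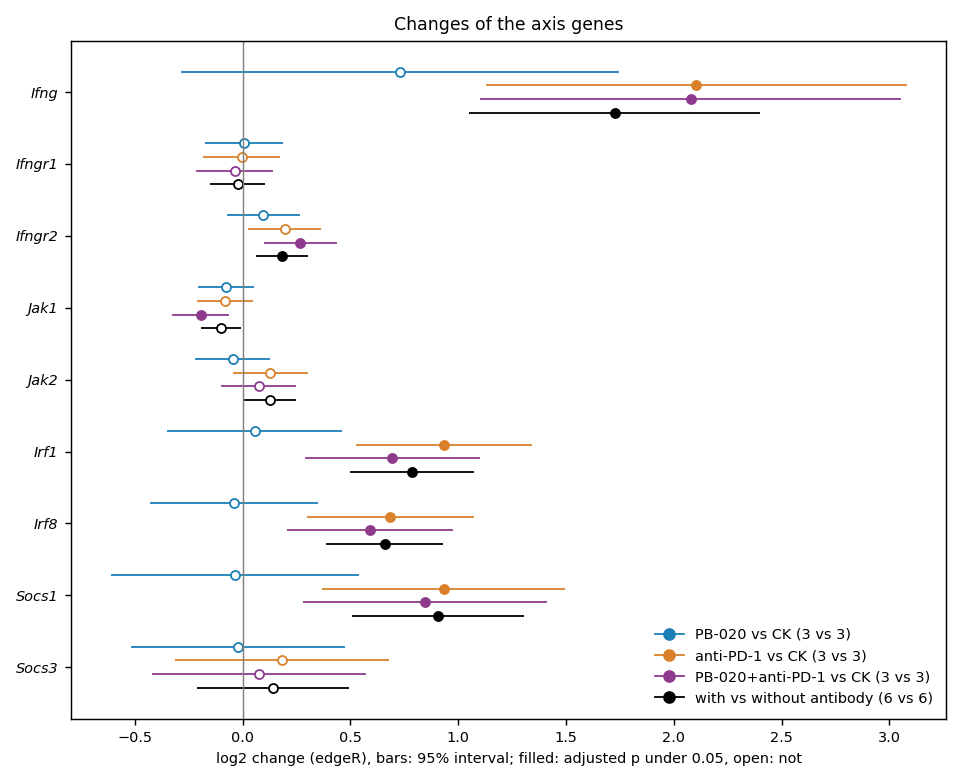
Log2 change of each member (x axis, edgeR) for each treated group against CK and for the 6 tumors with antibody against the 6 without, with 95% intervals. Filled points passed an adjusted p of 0.05. Ifng lies farthest to the right, at 2.10 and 2.08 in the groups with antibody, and the intervals of PB-020 against CK all include 0.

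Ifng (gene 15978, chr10:118441046-118445894) had 0.82, 0.72 and 0.73 FPKM in CK and 1.06, 0.84 and 1.84 FPKM with PB-020. It had 5.36, 1.5 and 2.85 FPKM with anti-PD-1 and 2.03, 3.91 and 3.61 FPKM with PB-020/anti-PD-1. Every treated tumor was above every CK tumor, an order found in 7.78% of all genes with PB-020, 13.9% with anti-PD-1 and 19.6% with PB-020/anti-PD-1, while anti-PD-1 tumor 2 lay below PB-020 tumor 3. The CK values rest on 13 to 15 counts per library, so they carry a large counting error. PB-020 tumor 2 and CK tumor 1 had the same 15 counts, so their order rests on the scaling of the libraries alone. Against CK, the log2 change was 2.10 with anti-PD-1 (standard error 0.45, adjusted p = 0.0181, edgeR) and 2.08 with PB-020/anti-PD-1 (standard error 0.45, adjusted p = 0.00945, edgeR). Over the 6 tumors with antibody against the 6 without, it was 1.73 (standard error 0.31, adjusted p = 0.00257, edgeR).

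The order of the Ifng means was CK (0.757 ± 0.055 FPKM, SD, n = 3), PB-020 (1.25 ± 0.53), PB-020/anti-PD-1 (3.18 ± 1.01) and anti-PD-1 (3.24 ± 1.96). Neighbours in this order did not pass the test. The log2 change of PB-020 from CK was 0.73 with a 95% interval of −0.29 to 1.75. The combination exceeded PB-020 by 1.35 on the log2 scale (interval 0.42 to 2.28, adjusted p = 0.0906, edgeR) without overlap, as did 14.6% of all genes, and differed from anti-PD-1 by −0.03 (interval −0.90 to 0.85). The call of Ifng with anti-PD-1 alone was lost when CK tumor 2 (adjusted p = 0.0832, edgeR) or CK tumor 3 (adjusted p = 0.0514) was left out, and when anti-PD-1 tumor 1 and CK tumor 3 were left out together (log2 change 1.51, adjusted p = 0.0834). The call over all tumors with antibody held in each of the 12 fits that left out 1 tumor.

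T cell transcripts moved with Ifng. The sum of 8 T cell genes (Cd3d, Cd3e, Cd3g and Lck among them) was 10.1 to 14.8 FPKM in CK, 15.2 to 18.9 with PB-020, 23.0 to 55.4 with anti-PD-1 and 29.2 to 44.6 with PB-020/anti-PD-1. All 8 genes were called raised over the tumors with antibody, where 11.8% of all genes were. The sum was highest in anti-PD-1 tumor 1, as was Ifng. Anti-PD-1 tumors 2 and 3 had 23.0 and 23.7 FPKM of the 8 T cell genes. The sum of 9 natural killer and cytotoxic genes ran from 17.3 to 28.6 FPKM in CK, 22.0 to 36.8 with PB-020, 31.3 to 80.6 with anti-PD-1 and 49.9 to 76.7 with PB-020/anti-PD-1. The ranges of PB-020 and anti-PD-1 overlapped. Of these 9 genes, 5 were called raised over the tumors with antibody, beside the same 11.8% of all genes. Set against the mean log2 CPM of the 8 T cell genes, Ifng was −1.09 ± 0.32 (SD, n = 6) without antibody and −0.77 ± 0.28 with it. This difference of 0.32 did not pass (exact permutation test, two-sided, p = 0.12, smallest possible p = 0.005). With each tumor left out in turn it ran from 0.23 to 0.44, and the exact p (200 arrangements) from 0.03 to 0.24. It was under 0.05 in 1 of the 12 cases, without PB-020 tumor 3, which had the highest value of the tumors without antibody.

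Erythroid transcripts and some fibroblast transcripts fell with the antibody. The sum of 7 erythroid genes was 679 to 1556 FPKM in CK, 449 to 1046 with PB-020, 101 to 380 with anti-PD-1 and 127 to 184 with PB-020/anti-PD-1. All 5 erythroid genes tested (Hbb-bs, Hbb-bt, Hba-a1, Hba-a2, Alas2) were called lowered over the tumors with antibody, where 12.3% of all genes were. Their median log2 change was −2.24. Of 7 fibroblast genes, 3 were called lowered, beside the same 12.3% of all genes. They were the collagen gene Col3a1 (−1.29), the proteoglycan gene Dcn (−1.16) and the receptor gene Pdgfra (−0.615). The other 4 were not called, with changes from 0.41 for Col1a2 to 1.29 for Lum. The part of these cells in the changes of the members was not tested.

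The 5 genes whose pattern over the 12 tumors lay nearest to that of Ifng, by root mean square distance of centred log2 CPM, were Gpm6b (0.27), Cd3e (0.27), Nkg7 (0.27), Cd3d (0.28) and Cd8b1 (0.28). The median distance over all genes was 0.94. Cd3e, Cd3d and Cd8b1 encode chains of the T cell receptor complex and of CD8, and Nkg7 a granule protein of cytotoxic cells.

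Of the receptor chains, Ifngr2 was called and Ifngr1 was not, and the difference between the chains was not tested. Ifngr1 (gene 15979, chr10:19591949-19610229), the ligand-binding chain, averaged 44.5 ± 0.66 FPKM in CK, 44.1 ± 5.6 with PB-020, 43.8 ± 1.98 with anti-PD-1 and 42.8 ± 2.7 with PB-020/anti-PD-1 (SD, n = 3). The tumors of all groups overlapped. Its log2 change with antibody over 6 against 6 tumors was −0.02, with an interval of −0.15 to 0.10.

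Ifngr2 (gene 15980, chr16:91547059-91564007), the chain that brings JAK2 to the receptor, had 29.5, 27.4 and 33.6 FPKM in CK and 32.0, 33.0 and 30.3 FPKM with PB-020. It had 37.0, 31.5 and 33.6 FPKM with anti-PD-1 and 35.9, 35.5 and 36.1 FPKM with PB-020/anti-PD-1. The 3 combination tumors lay within 1.02 times of each other and above every tumor of CK and PB-020, while the anti-PD-1 tumors overlapped with CK. The log2 change was 0.27 with PB-020/anti-PD-1 against CK (standard error 0.08, adjusted p = 0.0327, edgeR) and 0.18 over 6 against 6 tumors (adjusted p = 0.03, edgeR). The first call was kept in 7 of 12 fits with 1 tumor left out and lost without CK tumor 1 or 2 or any 1 combination tumor, with adjusted p values of 0.0182 to 0.143 over the 12 (edgeR). The second call was kept in 3 of 12 fits with 1 tumor left out, those without CK tumor 3, PB-020 tumor 2 or anti-PD-1 tumor 2, with adjusted p values of 0.0123 to 0.0784 over the 12.

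Jak1 and Jak2 encode the kinases bound to the receptor chains, and of them Jak1 was called in 1 comparison and Jak2 in 0 (1 comparison, 6 against 6 tumors, at an unadjusted p under 0.05, and 0 by DESeq2). Jak1 (gene 16451, chr4:101151974-101265282) had 61.2, 63.2 and 60.4 FPKM in CK, 57.4, 57.7 and 56.5 with PB-020, 59.5, 59.2 and 53.7 with anti-PD-1, and 53.4, 50.6 and 55.6 with PB-020/anti-PD-1. By FPKM all treated tumors lay below all CK tumors. The log2 change was −0.19 with PB-020/anti-PD-1 (standard error 0.06, adjusted p = 0.0423, edgeR), −0.08 with anti-PD-1 and −0.08 with PB-020, the last 2 not past the test. In scaled CPM, the scale on which overlaps were counted over all genes, Jak1 lay below CK without overlap with PB-020 and with the combination but not with anti-PD-1, and 6.47% and 21.2% of all genes had this order in the first comparisons. The call was kept in 2 of 12 fits with 1 tumor left out, those without anti-PD-1 tumor 1 or combination tumor 3, with adjusted p values of 0.0366 to 0.162 over the 12.

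Jak2 (gene 16452, chr19:29251803-29313095) averaged 14.9 ± 1.77 FPKM in CK, 14.3 ± 0.28 with PB-020, 16.4 ± 0.74 with anti-PD-1 and 15.5 ± 1.22 with PB-020/anti-PD-1 (SD, n = 3). Groups overlapped in every comparison with CK. The log2 change over 6 against 6 tumors was 0.13 (adjusted p = 0.126, edgeR), and it became 0.17 (adjusted p = 0.0309) without CK tumor 3, which had 16.9 FPKM against 13.6 and 14.2 in the other CK tumors.

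Irf1 (gene 16362, chr11:53770014-53778374) had 98.6, 65.5 and 103 FPKM in CK and 94.4, 82.0 and 97.6 FPKM with PB-020. It had 206, 132 and 166 FPKM with anti-PD-1 and 132, 144 and 151 FPKM with PB-020/anti-PD-1. No tumor with antibody overlapped with a tumor without it. The log2 change against CK was 0.93 with anti-PD-1 (standard error 0.18, adjusted p = 0.0181, edgeR) and 0.69 with PB-020/anti-PD-1 (standard error 0.18, adjusted p = 0.0274, edgeR), and 0.79 over 6 against 6 tumors (standard error 0.13, adjusted p = 0.00287, edgeR). With 1 tumor left out, the first call was lost without anti-PD-1 tumor 3 (adjusted p = 0.0625, edgeR). The second was kept in 8 of 12 fits and lost without CK tumor 2 or any 1 combination tumor (adjusted p up to 0.0741). The last held in each of the 12 fits, at 0.70 to 0.86.

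The order of the Irf1 means was CK, PB-020, PB-020/anti-PD-1 and anti-PD-1. PB-020 and CK differed by 0.06 (interval −0.35 to 0.46), and the combination and anti-PD-1 by −0.24 (interval −0.64 to 0.16). The nearest patterns were those of Tapbpl (distance 0.09), Il15ra (0.12), Tapbp (0.12), Samhd1 (0.13) and Tap1 (0.13), against a median of 0.49 over all genes. Tap1, Tapbp and Tapbpl encode parts or relatives of the peptide-loading machinery of class I major histocompatibility molecules, and Il15ra the chain that presents interleukin 15. Irf1 shares 135 exonic bases with Gm17334 on the opposite strand, and whether strand was used in counting is not given in the sources used here.

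Irf8 (gene 15900, chr8:120736358-120756694) had 12.7, 10.7 and 12.6 FPKM in CK and 11.3, 10.2 and 13.0 FPKM with PB-020. It had 25.8, 14.9 and 16.6 FPKM with anti-PD-1 and 16.2, 18.8 and 18.5 FPKM with PB-020/anti-PD-1. All 6 tumors with antibody were above all 6 without it. The log2 change against CK was 0.69 with anti-PD-1 (standard error 0.18, adjusted p = 0.0375, edgeR) and 0.59 with the combination (standard error 0.18, adjusted p = 0.0399, edgeR), and 0.66 over 6 against 6 tumors (standard error 0.12, adjusted p = 0.00444, edgeR). Leaving out 1 tumor at a time, the call was kept in 6, 5 and 12 of 12 fits of these comparisons.

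Because Irf8 is also a lineage gene of macrophages, it was set against 11 macrophage genes (Adgre1, Cd68, Csf1r, Mrc1, C1qa, C1qb, C1qc, Cd14, Lyz2, Mertk, Msr1). Their sum was 1717 to 2155 FPKM in CK, 1815 to 2163 with PB-020, 1688 to 3230 with anti-PD-1 and 2214 to 2600 with PB-020/anti-PD-1. The value of 3230 belonged to anti-PD-1 tumor 1, against 1688 and 1970 in anti-PD-1 tumors 2 and 3. Of the 11, 1 was called raised over the tumors with antibody, near the 11.8% of all genes. Relative to their mean log2 CPM, Irf8 was −1.83 ± 0.14 (SD, n = 6) without antibody and −1.25 ± 0.07 with it. The difference of 0.58 passed (exact permutation test, two-sided, p = 0.005, the smallest that the 400 arrangements allow), and all 6 tumors with antibody lay above all 6 without. It ran from 0.53 to 0.62 with 1 tumor left out. Irf8 by itself already had this order, and the macrophage genes had a median log2 change of 0.15. The test therefore largely repeats the call of Irf8. Of 9 dendritic cell genes, 4 were called raised with antibody, beside the same 11.8% of all genes. The sum of the 9 was 12.3 to 14.4 FPKM in CK, 10.6 to 14.9 with PB-020, 14.5 to 22.5 with anti-PD-1 and 16.4 to 18.7 with PB-020/anti-PD-1. The value of 22.5 belonged to anti-PD-1 tumor 1, against 14.5 in each of anti-PD-1 tumors 2 and 3. The part of dendritic cell genes in the level of Irf8 was not tested. The patterns nearest to Irf8 were those of Samhd1 (0.10), Ptk2b (0.10), Cd86 (0.11), Slco3a1 (0.11) and Cybb (0.12), with a median of 0.41 over all genes. Cd86 encodes a costimulatory ligand of antigen-presenting cells, and Cybb a subunit of the phagocyte oxidase.

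**Figure D3:**
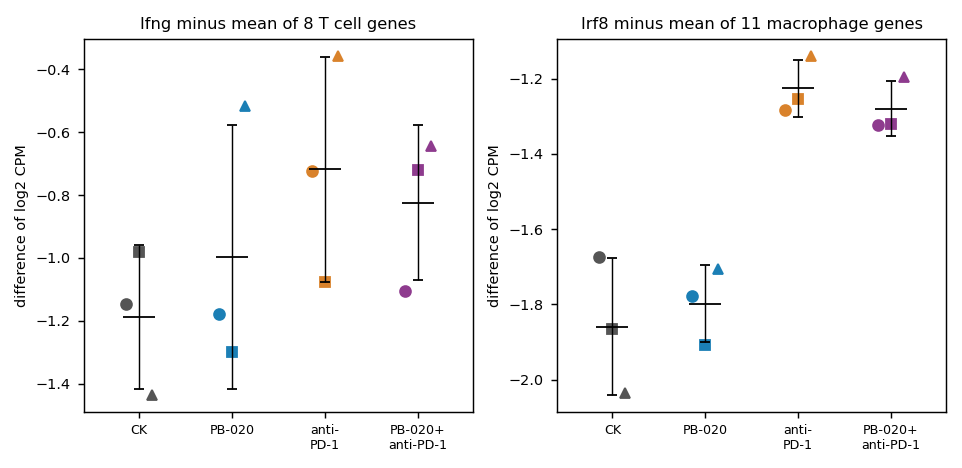
Ifng relative to 8 T cell genes (left) and Irf8 relative to 11 macrophage genes (right), as differences of log2 CPM (y axis), in the 4 groups (x axis). Symbols are tumors and black bars the mean ± SD of 3 tumors. The Irf8 values with antibody, −1.32 to −1.14, lie above all those without, while the Ifng values with and without antibody overlap.

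Promoter sequence was read for the raised factors and Socs1, since GAS sites and sites of the IRF family are the known docking sequences of the pathway. The windows of RefSeq (GRCm38.p6) hold 250 bases before and 50 after a start, and all 9 members had at least 1. The GAS motif searched was TTCNNNGAA, and the IRF motif GAAANNGAAA (TTTCNNTTTC on the other strand). Over all 27025 genes with a window, 9.55% held the GAS motif and 3.99% the IRF motif. Of the members, 4 held the GAS motif (Ifng, Irf1, Irf8, Socs3) and 1 the IRF motif (Socs1), while the receptor chains and kinases held neither. The stretches from −200 to −51 of the start of Irf1 (chr11:53769814-53769963, plus strand), Irf8 (chr8:120736158-120736307, plus strand) and Socs1 (chr16:10785587-10785736, minus strand) are shown because these genes separated the tumors without overlap. Capitals mark the GAS matches of Irf1 and Irf8 and the IRF matches of Socs1.
Irf1: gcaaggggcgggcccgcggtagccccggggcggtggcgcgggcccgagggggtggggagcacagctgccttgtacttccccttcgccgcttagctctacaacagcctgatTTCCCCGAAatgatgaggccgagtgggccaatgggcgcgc
Irf8: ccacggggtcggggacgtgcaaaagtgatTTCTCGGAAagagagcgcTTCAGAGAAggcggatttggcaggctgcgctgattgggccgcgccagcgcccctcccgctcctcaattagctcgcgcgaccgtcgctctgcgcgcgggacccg
Socs1: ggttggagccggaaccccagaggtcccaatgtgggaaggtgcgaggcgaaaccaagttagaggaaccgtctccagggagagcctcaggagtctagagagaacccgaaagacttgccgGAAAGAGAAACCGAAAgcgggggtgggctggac

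With −1 as the base just before the start, the Irf1 match begins at −90 and the Irf8 matches at −171 and −153. In Socs1 a pair of IRF matches, at −83 and −77, overlap each other. The GAS matches of Ifng and Socs3 begin at −249 and −154 of their starts. A match of letters is a description and does not show that a factor was bound in these tumors. Socs3 held a match and did not pass the test over all tumors, and Socs1 rose without a GAS match in this window.

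Socs1 (gene 12703, chr16:10783808-10785536), the inhibitor of JAK kinases induced by interferon gamma, had 12.02, 9.85 and 15.3 FPKM in CK and 12.7, 9.61 and 13.4 FPKM with PB-020. It had 32.5, 15.97 and 21.7 FPKM with anti-PD-1 and 18.2, 25.6 and 22.5 FPKM with PB-020/anti-PD-1. The lowest tumor with antibody, at 15.97 FPKM, lay just above the highest without it, CK tumor 3 at 15.3. The log2 change against CK was 0.93 with anti-PD-1 (standard error 0.26, adjusted p = 0.0498, edgeR) and 0.85 with PB-020/anti-PD-1 (standard error 0.26, adjusted p = 0.044, edgeR), and 0.91 over 6 against 6 tumors (standard error 0.18, adjusted p = 0.00637, edgeR). Leaving out 1 tumor at a time, the call was kept in 1, 4 and 12 of 12 fits of these comparisons, so the calls against CK depended on single tumors and the call over all tumors did not. The nearest patterns were those of Havcr2 (0.14), Slamf8 (0.15), Il18bp (0.15), C1s1 (0.16) and H2-Ab1 (0.16), with a median of 0.55 over all genes. Havcr2 encodes the checkpoint receptor TIM-3, Il18bp a soluble trap of interleukin 18, and H2-Ab1 a chain of class II molecules.

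Irf1, Irf8 and Socs1 were thus the members with no overlap between the 6 tumors with antibody and the 6 without, an order found in 4.1% of all genes in the raised direction. The scatter of the members differed between the antibody groups. The coefficient of variation was 60.5% for Ifng, 35.9% for Socs1, 30.7% for Irf8 and 22.2% for Irf1 with anti-PD-1, against 31.7%, 16.9%, 7.89% and 6.82% with PB-020/anti-PD-1. It was also higher with anti-PD-1 for Ifngr2 (8.22% against 0.778%) and Jak1 (5.71% against 4.68%). It was lower with anti-PD-1 for Ifngr1 (4.51% against 6.32%), Jak2 (4.49% against 7.88%) and Socs3 (6.74% against 10.9%). For Ifng, Socs1, Irf8 and Irf1, anti-PD-1 tumor 1 was the highest and anti-PD-1 tumor 2 the lowest of its group. Without anti-PD-1 tumor 1, 2 tumors remain in that group. They had 1.5 and 2.85 FPKM of Ifng, 15.97 and 21.7 of Socs1, 14.9 and 16.6 of Irf8, and 132 and 166 of Irf1. The sums of the cell type marker lists also ranged more widely with anti-PD-1 alone, except those of neutrophil and epithelial genes. Whether the spread itself differed was not tested, and the share of all genes with such differences was not taken.

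Socs3 (gene 12702, chr11:117966079-117970336), which restrains signaling by interleukin 6 family cytokines and granulocyte colony-stimulating factor, was not called in any comparison of the 12 tumors. It had 22.8, 21.8 and 43.5 FPKM in CK and 27.9, 28.7 and 28.7 FPKM with PB-020. It had 33.5, 30.3 and 34.6 FPKM with anti-PD-1 and 26.6, 32.4 and 32.5 FPKM with PB-020/anti-PD-1. CK held both the lowest tumors of the series and the highest. The log2 change over 6 against 6 tumors was 0.14 (standard error 0.16, adjusted p = 0.554, edgeR).

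The high value belonged to CK tumor 3, the library with neutrophil transcripts. All 6 neutrophil genes had their highest value there, among them S100a9 at 211 FPKM against at most 13.5 in the other tumors. Ly6g reached only 0.80 FPKM there and was at or near 0 elsewhere. Without CK tumor 3, the mean of the remaining 2 CK tumors was 22.3 FPKM, and every treated tumor lay above both. The share of all genes with this order was not taken. CK tumor 3 was singled out after seeing the data, and leaving it out took away the highest Socs3 value of CK. Socs3 was then called raised over all tumors with antibody (log2 change 0.34, adjusted p = 0.00449, edgeR), where 10.8% of all genes rose. It was also called with anti-PD-1 (0.56, adjusted p = 0.0193, edgeR) and with PB-020/anti-PD-1 (0.47, adjusted p = 0.0129, edgeR), where 2.46% and 5.38% rose. PB-020 without antibody averaged 28.4 FPKM of Socs3, also above the remaining CK mean, and was not called. The part of neutrophils in the level of Socs3 was not tested.

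**Figure D4:**
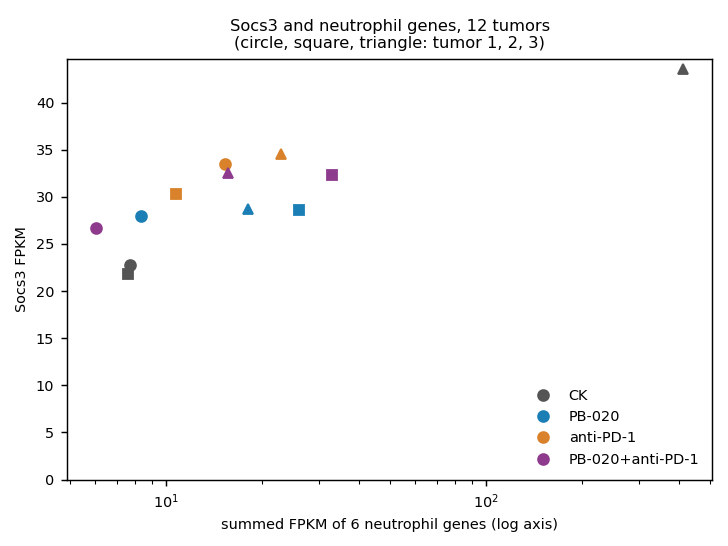
Socs3 FPKM (y axis) against the summed FPKM of 6 neutrophil genes (x axis, log scale) in the 12 tumors, colored by group with symbols for tumors 1 to 3. CK tumor 3 lies alone at 412 FPKM of neutrophil genes and 43.5 FPKM of Socs3, and the other CK tumors have the lowest Socs3 values.

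Adding PB-020 to the antibody left the members without a call. Between PB-020/anti-PD-1 and anti-PD-1, edgeR called 0 members, 0 had an unadjusted p under 0.05 (7.26% of all genes had), DESeq2 called 0 members, and 0% of all genes were called. The 95% intervals allowed sizeable changes for the variable genes, from −0.90 to 0.85 for Ifng and from −0.64 to 0.46 for Socs1, and smaller ones for the steady genes, from −0.21 to 0.15 for Ifngr1 and from −0.24 to 0.02 for Jak1. Over the 6 tumors with PB-020 against the 6 without, 0 members were called either (0 by DESeq2), where 0% of all genes were called. At an unadjusted p under 0.05 there was 1, Jak1 at −0.10 (adjusted p = 0.447, edgeR), beside 10.9% of all genes. The interaction, which asks whether the antibody effect differed with and without PB-020, was called for 0 members by edgeR and by DESeq2 (0 at an unadjusted p under 0.05, where 2.29% of all genes passed, and 0% of all genes called). It was −0.76 for Ifng, with an interval of −2.10 to 0.59.

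Set against PB-020 alone, the combination had 5 members above without overlap (Ifng, Ifngr2, Irf1, Irf8, Socs1), as 14.6% of all genes were, and 1 below (Jak1), as 16.5% were. By edgeR 0 of them passed the adjusted threshold, with adjusted p values of 0.0723 to 0.0906 for Ifng, Irf1, Irf8 and Socs1, and 3.35% of all genes were called. At an unadjusted p under 0.05 there were 5, beside 22.4% of all genes, and DESeq2 called 3 (Irf1, Irf8, Socs1). The log2 changes were 1.35, 0.64, 0.63 and 0.88 for Ifng, Irf1, Irf8 and Socs1. Leaving out anti-PD-1 tumor 1 or anti-PD-1 tumor 2, which enter the shared estimate of the spread only, gave 4 calls each, and leaving out CK tumor 2 gave 1. Of all genes, 4.41%, 2.22% and 0.967% rose in these fits, in the same order.

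Genes around the axis were counted from lists written by role. Of 15 tested inducers of Ifng (18 listed), 13 rose over the tumors with antibody, where 11.8% of all genes rose, and 0 fell, with a median log2 change of 0.93 against 0 over all genes tested. With PB-020/anti-PD-1 against CK 10 rose, where 8.35% of all genes rose. This count was 3 without CK tumor 2, 4 without combination tumor 2 and 6 without combination tumor 1, where 2.39%, 3.89% and 3.34% of all genes rose. It was 7 to 12 without any other tumor, where 5.38% to 12.3% of all genes rose. The largest called changes were those of Il18r1 (log2 change 1.81), a chain of the interleukin 18 receptor, Il27ra (1.65), the interleukin 27 receptor, Tbx21 (1.59), the factor T-bet that drives Ifng transcription in T cells, and Il12b (1.48), the shared subunit of interleukins 12 and 23. Tbx21 went from 0.337 ± 0.115 FPKM in CK to 1.0 ± 0.052 with the combination (SD, n = 3). The others named were also low in CK, at 0.583 (Il18r1), 0.413 (Il27ra) and 0.317 FPKM (Il12b). The standard errors of these log2 changes were 0.41 to 0.43, so their sizes are imprecise. The 2 inducers not called with antibody, named after their values were seen, were Il18 (−0.19) and Eomes (−0.11). Receptors and factors of this list are themselves expressed by T cells, whose markers rose as given above, and the part of T cell transcripts in them was not tested.

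Of 15 transducers of the signal, 2 rose with antibody, Prkcd among them, and 1 fell (Mapk3), near the 11.8% of all genes that rose and the 12.3% that fell, with a median of 0.03. With PB-020/anti-PD-1 against CK, 1 rose and 2 fell, where 8.35% of all genes rose and 9.6% fell. Crebbp, a transcriptional coactivator, fell by 0.32 and Mapk3, the kinase ERK1, by 0.25 on the log2 scale. Neither fall was called without combination tumor 1, where 4.54% of all genes fell. Crebbp was not called over the 6 tumors with antibody against the 6 without (adjusted p = 0.0576, edgeR). Mapk3 was at 149 ± 10 FPKM in CK and 124 ± 8.8 with the combination (SD, n = 3).

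Of 19 brakes on the pathway, 4 rose with antibody and 3 fell, beside the same 11.8% and 12.3% of all genes, with a median of 0.05. With PB-020/anti-PD-1 against CK, 3 brakes rose and 2 fell, where 8.35% of all genes rose and 9.6% fell. Ptprc rose by 0.71, while Pias3 fell by 0.52 and Trim24 by 0.43 on the log2 scale. Ptprc encodes the phosphatase CD45, which all leukocytes carry. Pias3 encodes an inhibitor of STAT3, and Trim24 a transcriptional cofactor. Of 6 tested other IRFs, 2 rose with antibody (Irf2 and Irf5, with a median over the 6 of 0.43), beside the same 11.8% of all genes. This count ran from 1 to 3 with 1 tumor left out, where 7.3% to 13.4% of all genes rose. Irf5 alone rose with the combination against CK (0.46), where 8.35% of all genes rose. The call of Irf5 was lost without CK tumor 1 or 2 or any 1 combination tumor, where 2.39% to 6.94% of all genes rose.

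Of 45 tested targets of interferon gamma (46 listed), 15 rose with anti-PD-1 against CK, 22 with PB-020/anti-PD-1 and 40 over the tumors with antibody, where 4.18%, 8.35% and 11.8% of all genes rose. In these comparisons 0 targets fell, with medians of 0.81, 0.85 and 0.87 against 0 over all genes. With PB-020 against CK 0 were called by edgeR, 0 had an unadjusted p under 0.05, and the median was 0.08. Among the targets called, the largest changes with PB-020/anti-PD-1 were those of Ido1 (3.36), which degrades tryptophan, Cxcl9 (1.94), a chemokine that draws T cells, Tgtp1 (1.73), a GTPase of cell-autonomous defense, and Fcgr4 (1.69), an activating antibody receptor. Ido1 went from 0.800 ± 0.375 FPKM in CK to 1.61 ± 0.58 with PB-020, 9.24 ± 4.31 with anti-PD-1 and 8.26 ± 0.79 with the combination (SD, n = 3). Cxcl9 was at 30.3 ± 12.2, 36.5 ± 10.4, 85.5 ± 26.1 and 115 ± 12 FPKM in the same order. Tgtp1 has near-identical relatives, so its value is uncertain. The 5 targets not called with antibody, named after their values were seen, were Irgm2 (0.70), H2-Eb1 (0.69), Nos2 (1.07), Casp4 (0.15) and Xaf1 (0.74).

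The target counts against CK depended on single tumors, and so did the share of all genes that rose. With anti-PD-1 alone, the count of 15 became 1 without anti-PD-1 tumor 1 or 3, 3 without CK tumor 2, 4 without CK tumor 1, 6 without PB-020 tumor 1 or any 1 combination tumor, and 23 without PB-020 tumor 2. The share of all genes that rose, 4.18% with all tumors, was 2.13% and 0.93% without anti-PD-1 tumors 1 and 3. It was 0.473% and 2.51% without CK tumors 2 and 1, and 2.64% and 4.08% without PB-020 tumors 1 and 2. Without a combination tumor it was 3.05% to 3.46%. PB-020 and combination tumors enter this comparison through the shared estimate of the spread only. With PB-020/anti-PD-1, the count of 22 became 6 without combination tumor 2, 7 without combination tumor 1, 8 without CK tumor 2, 10 without CK tumor 1 or combination tumor 3, and 13 without PB-020 tumor 1 or anti-PD-1 tumor 3, and reached 28 at most. Of all genes, 3.89%, 3.34% and 2.39% rose without combination tumor 2, combination tumor 1 and CK tumor 2, against 8.35% with all tumors. The share was 5.9% to 7.83% in the fits with 10 or 13 targets, and at most 12.3%. The count over the tumors with antibody ran from 31 to 40 with 1 tumor left out, where 7.3% to 13.4% of all genes rose. Without CK tumor 3 and anti-PD-1 tumor 1 together, the counts were 6, 30 and 37, where 1.73%, 11% and 11.3% of all genes rose.

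**Figure D5:**
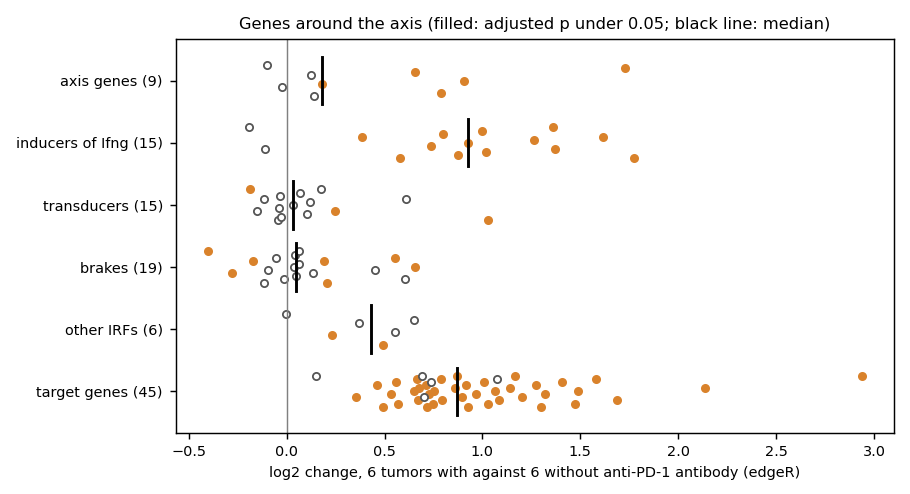
Log2 change over 6 tumors with against 6 without antibody (x axis, edgeR) of the 9 axis genes and of the tested genes of 5 lists (rows). Each point is a gene, filled where the adjusted p was under 0.05, and the black line is the median of the row. Target genes and inducers lie to the right of 0 with medians of 0.87 and 0.93, while transducers and brakes center near 0.

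The motif shares of the targets were read in the same windows. Of the 31 targets with a window, 10 held the GAS motif and 13 the IRF motif, beside the 9.55% and 3.99% of all genes. Of 12 transducers with a window, 0 held the GAS motif and 1 the IRF motif. These shares describe letters in a 300-base window, and none of the lists was chosen without knowledge of the pathway.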

How the data were processed

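Bulk RNA of 12 MC38 tumors was sequenced as pairs of 150-base reads, aligned with Bowtie2 (the submitters' processing notes also list HISAT) and quantified with RSEM by the authors. The build is GRCm38.p6 per the processing notes, the annotation and strand setting are not given in the sources used here. The deposited expected counts are estimated by RSEM, not normalized, with 91.0% of them whole numbers. FPKM values, also deposited, are per kilobase of effective length and sequenced fragments, as computed by the authors, and give the levels here. The deposited TPM values, scaled by the authors to one fixed total per library, and the authors' group means were not used. No expected count column lacked a labelled sample.

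Expected counts were rounded, filtered with filterByExpr (minimum count 10), scaled by TMM and tested in edgeR 4.0.16 (R 4.3.3) with the robust quasi-likelihood test, fitted to all 12 libraries with 4 group means. Tests were two-sided, with Benjamini-Hochberg adjustment over the 13563 genes tested and a threshold of 0.05. Log2 CPM used a prior count of 2. "Raised" and "fell" mean past this threshold. Single values were compared by exact permutation of the antibody label within each arm of PB-020 (400 arrangements). The fits were tested on simulated counts. Alternatives were DESeq2 1.42.0, limma 3.58.1 on log2(FPKM + 1) and log2(FPKM + 0.1), no filter and a mean count of at least 50, other scalings, a fold over 1.5 with unadjusted p under 0.05, the replicate number as a block, only the groups compared, and each library left out.

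The members, the 5 pathway lists and the marker lists were chosen with earlier results of these data known. All members were named, with up to 4 list genes of largest change past the threshold in PB-020/anti-PD-1 against CK, up to 2 in the opposite direction, and the 5 nearest patterns. Positions are from RefSeq GRCm38.p6, which matched 18091 of 18211 gene numbers. Exonic overlaps are from GENCODE M21, and Ifng also shares exonic bases with Gm49751. Some genes that this rule would name are not reported here. Intervals hold the spread among tumors with its counting error, and no alignment error.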

Additional observations from a re-analysis of the deposited data

How the results depend on the processing

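The count of members called over the tumors with antibody, 5, stayed at 4 or 5 under every alternative listed with the methods except without CK tumor 3, when it was 7. Leaving out 1 tumor moved it between 4 and 7, where 15.2% to 26.8% of all genes were called in either direction. The count for anti-PD-1 against CK, 4, became 2 with limma on log2(FPKM + 1), 0 when only the groups compared were fitted, and 1 to 4 with 1 tumor left out. It was 1 without CK tumor 2 or anti-PD-1 tumor 3, 2 without CK tumor 1 or 3, PB-020 tumor 1 or combination tumor 3, 4 without anti-PD-1 tumor 2, and 3 without any 1 of the other 5 tumors. Of all genes, 0.473% rose without CK tumor 2 and 0.93% without anti-PD-1 tumor 3, and up to 6.81% without anti-PD-1 tumor 2. The count for PB-020/anti-PD-1 against CK, 6, became 3 with library size alone and 1 to 6 with 1 tumor left out: 1 without CK tumor 2, combination tumor 1 or combination tumor 2, 2 without CK tumor 1 or combination tumor 3, 3 without PB-020 tumor 1, and 4 to 6 without any other tumor. Over these fits with 1 tumor left out, 6.28% to 24.4% of all genes were called in either direction. The count for PB-020/anti-PD-1 against PB-020, 0, became 3 with DESeq2, 4 at a fold over 1.5 with unadjusted p under 0.05, 4 with only the groups compared, 1 with the replicate block and 0 to 4 with 1 tumor left out. With 1 tumor left out, 0% to 9.28% of all genes were called in this comparison. Leaving out CK tumor 3 and anti-PD-1 tumor 1 together, an alternative chosen after seeing the data, left 1 member called for anti-PD-1 against CK, 7 for the combination against CK, 7 over all tumors with antibody and 4 against PB-020. The shares of all genes called in either direction were 3.37%, 20.6%, 21.2% and 10.9%. The Ifng difference relative to T cell genes, 0.32, ran from 0.23 to 0.44 with 1 tumor left out. For the other comparisons, 0 members were called under every alternative.

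Same-numbered tumors did not deviate together (18 pairs, correlation −0.21 to 0.29, 2 over 0.1), so the numbers were not taken as pairs. With the replicate block the counts against CK were 3 with anti-PD-1 and 5 with the combination, and 5 over the tumors with antibody. No call changed its direction, and of 1795 gene values recomputed under the alternatives, 113 lost the call, 37 gained it and 101 changed sign where neither was called. The strict filter removed Ifng, which lowered the count over all tumors to 4. The causes were not tested. Ifng had 13 to 15 counts per CK library, fewer than any other member. The SD of its log2 CPM was 0.10 in CK and 0.88 with anti-PD-1 (n = 3). The parts of depth and of the spread between tumors in the precision of the Ifng change were not tested.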
